A study of Homo sapiens with 2 samples.

Results

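Chromosome 13 carries RB1, the gene that codes for the retinoblastoma protein Rb, and the account covers every peak of Rb that was listed on it (build hg19) in VCaP and LNCaP cells, which are lines of human prostate cancer. The members were all rows on chromosome 13 of both deposited peak lists, 215 of 9423 in VCaP and 377 of 21994 in LNCaP, or 592 of 31417 in all. They were placed by their summits into the 2 Mb around RB1 (7 peaks in VCaP and 10 in LNCaP), the stretch from 109 to 113 Mb (67 and 20) and the rest of the chromosome (141 and 347). The stretch from 109 to 113 Mb had been singled out from its counts in an earlier look at these data, so those counts are a description and support nothing by themselves.

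VCaP and LNCaP are established lines from metastases of prostate cancer that respond to androgen. Each line gave 1 library of chromatin immunoprecipitation and sequencing (ChIP-seq), made with a mouse monoclonal antibody against Rb. Cells of both lines, at passage 10 to 15, spent 3 days in 5% charcoal-treated serum, which holds little steroid hormone, and were then exposed to 10 nM dihydrotestosterone (DHT) for 4 h, so that every sample carries that treatment. No untreated cells, no input and no replicates entered the analysis, the peak lists hold no markers by which the cell lines could be checked, and no difference between the lines can be tested.

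Rb holds back the cell cycle by binding E2F transcription factors at promoters, and prostate cancers that progress on treatment often lose RB1. Chromosome 13 is acrocentric: its short arm consists mostly of repeats and ribosomal RNA genes, and its long arm is among the more gene-poor parts of the human genome. The promoter of RB1 is itself known to be controlled through E2F.

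Rb had a peak at the start of its own gene in both lines, and no other peak was listed in the gene. The peak over the start of RB1 (position 48877883, gene end 49056026) covered chr13:48877641-48878044 in VCaP and chr13:48877470-48878433 in LNCaP. Its summit lay 0.099 kb inside the gene in VCaP and -0.043 kb, before the gene, in LNCaP, and the summits were 142 bp apart. The pileup, the number of extended tags over the summit, was 11 in VCaP and 20 in LNCaP, which is 1.27 and 5.45 per 1000000 tags of each library. The fold enrichment, the authors' ratio of pileup to local background, was 5.01 in VCaP and 8.50 in LNCaP. This placed the site at rank 114 of 215 on the chromosome in VCaP and 79 of 377 in LNCaP. Over chromosomes 1 to 22 and X it ranked 6428 of 9393 in VCaP and 3638 of 21955 in LNCaP. It thus lay in the lower part of the VCaP list and the upper part of the LNCaP list. The VCaP rank on the chromosome also counts the 67 peaks of the stretch singled out above, whose median fold was 4.07.

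Promoter sequences are given for the start with a peak and for a start without one. Each is a single window, so their differences cannot be tied to the presence of a peak. RB1-DT is transcribed away from RB1, and its promoter window, 250 bases before to 50 after its start, holds the start of RB1 in the RefSeq table (GRCh38.p14, minus strand, chr13:48303653-48303952). The RB1 entry of the same table is a start inside the gene (plus strand, chr13:48476200-48476499), where neither list had a peak. Capitals mark E2F letters (TTTCCCGC, TTTGGCGC, TTTGCCGC or TTTCGCGC on either strand). The bases are those of RefSeq, not of the peaks, since no hg19 sequence was used here.
RB1-DT promoter: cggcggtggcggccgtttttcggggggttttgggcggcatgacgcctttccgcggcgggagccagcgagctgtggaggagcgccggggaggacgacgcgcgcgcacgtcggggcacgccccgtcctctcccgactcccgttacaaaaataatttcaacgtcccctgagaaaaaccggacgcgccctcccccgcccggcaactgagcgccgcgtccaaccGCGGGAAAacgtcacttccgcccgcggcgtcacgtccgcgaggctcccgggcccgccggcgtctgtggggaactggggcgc
RB1 internal start: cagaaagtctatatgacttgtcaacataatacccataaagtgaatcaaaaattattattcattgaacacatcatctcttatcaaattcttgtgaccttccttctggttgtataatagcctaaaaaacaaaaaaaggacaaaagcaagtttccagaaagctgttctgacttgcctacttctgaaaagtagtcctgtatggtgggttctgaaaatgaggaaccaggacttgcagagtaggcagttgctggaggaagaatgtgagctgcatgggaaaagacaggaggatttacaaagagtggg

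The window at the start of RB1 had 71.3% G and C and 48 CpG dinucleotides, against 38.3% and 0 for the internal start. The median of all 35116 promoter windows was 58.7% with 14 CpG. The window at the start of RB1 held 1 E2F match, TTTCCCGC read on the opposite strand, at bases 220 to 227, while the internal start held none. Any of the 4 E2F words was found in 3.31% of all promoter windows and in 3.48% of the 892 on chromosome 13. These shares are not matched for G and C, and 82.7% of all windows had less than the window at the start of RB1. In the window at the start of RB1 no other factor had a match among the words searched on both strands: TTTGAA for the cell cycle element CHR, CCAAT for NF-Y, CCGGAAG for ETS factors, GCGCATGC for NRF1, TGTTTAC for FOX factors and AGAACA for the androgen receptor. The internal start held the androgen receptor word once, on the opposite strand, as 14.8% of all windows did at least once. LPAR6, which codes for a receptor of lysophosphatidic acid, also has its window inside RB1 in that table, with 43.3% G and C and no E2F match. It too lies in the part of the gene without a peak. A match is a description of these letters and does not mark a bound site.

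Around RB1 the lists shared most of the VCaP peaks. The fold was the higher in VCaP at 0 of the 6 shared sites (exact 95% interval 0 to 45.9%), and at 19.2% of all 6688 pairs on chromosomes 1 to 22 and X, which lies within that interval. In the window from 47966955 to 49966954, 6 of the 7 VCaP peaks (85.7%, exact 95% interval 42.1 to 99.6) and 6 of the 10 LNCaP peaks (60.0%, 26.2 to 87.8) were overlapped by at least 1 bp in the other list. Over chromosomes 1 to 22 and X, the overlapped share was 71.2% in VCaP and 30.2% in LNCaP. With so few peaks both shares have wide intervals, and the share of each whole list lies within its interval.

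The highest site of the window lay before RB1, at -266 kb from its start, at chr13:48611750-48612243 in VCaP and chr13:48611662-48612339 in LNCaP. It had 21 tags and a fold of 8.47 in VCaP and 35 tags and a fold of 13.6 in LNCaP, ranks 8 and 6 on the chromosome. It was 1 of 2 sites among the 10 highest of both lists. Shared sites on the same side, at -303 and -209 kb, had folds of 5.11 and 7.69 in VCaP and of 8.54 and 12.2 in LNCaP. Behind the gene, a site 229 kb from its start had 7.03 in VCaP and 10.5 in LNCaP. The farthest shared site, 944 kb away, had 5.96 and 9.34. Shared summits around RB1 were a median of 102.5 bp apart.

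The remaining peaks of the window were found in 1 list. VCaP alone had a peak 466 kb behind the start of RB1 (chr13:49343322-49343628, 10 tags, fold 6.15), and a LNCaP peak 37.2 kb from it (chr13:49306116-49306413, 10 tags, fold 8.08) had no VCaP partner. The other LNCaP peaks without a partner lay before the start of RB1 at -70.2 kb (fold 8.03) and behind it at 672 and 738 kb (9.01 and 5.31). The last of these had only 6 tags at its summit. In the order of protein-coding genes, RB1 follows MED4, a subunit of Mediator, and ITM2B, a membrane protein, and it precedes RCBTB2 and CYSLTR2, a leukotriene receptor. That order comes from GRCh38, and no peak is assigned to these genes.

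**Figure D1:**
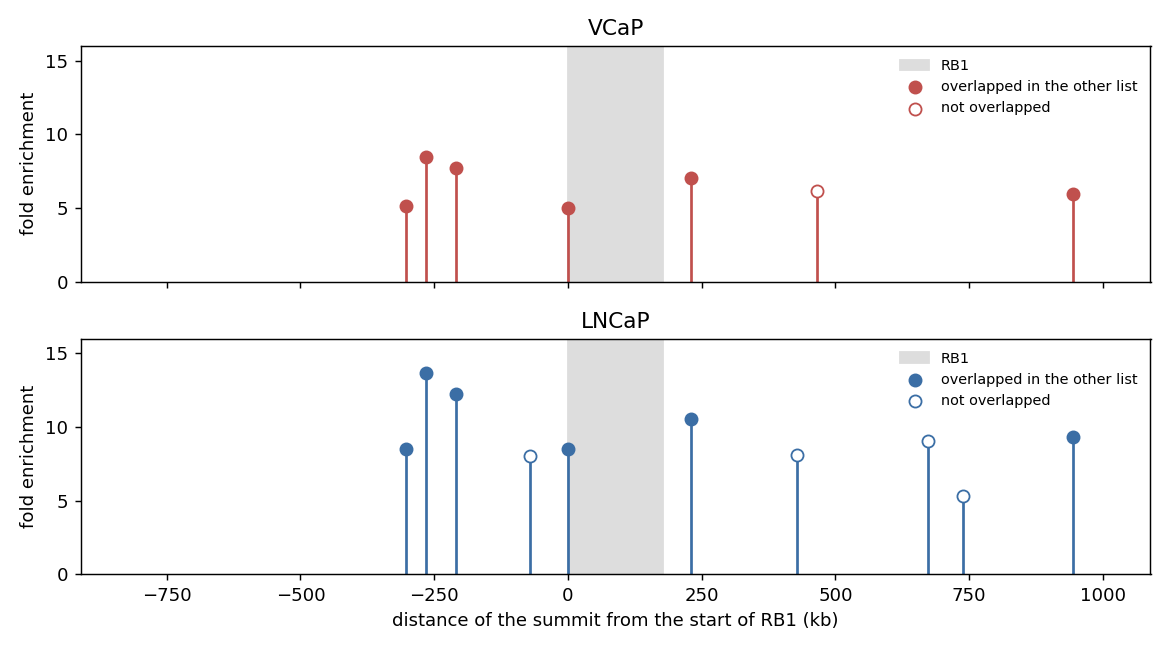
Fold enrichment (y axis, the authors' ratio to local background) of each Rb peak by the distance of its summit from the start of RB1 in kb, VCaP above and LNCaP below; the grey band is RB1 and open points have no overlapping peak in the other list. A peak stands at the start of RB1 in both lines (5.01 in VCaP and 8.50 in LNCaP), and no other peak is listed within the gene.

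Along the chromosome, LNCaP had more peaks than VCaP in most 5 Mb bins, and the 2 bins with more in VCaP lay towards the distal end. Of 24 bins, 3 at the start of the chromosome held no peak, and in 18 of the other 21 VCaP had fewer peaks than LNCaP. Between 20 and 35 Mb there were 51 VCaP and 109 LNCaP peaks, 3.40 and 7.27 per Mb. From 15 to 55 Mb, a part that includes RB1, the ratio of VCaP to LNCaP counts was 0.439 (100 and 228 peaks), close to the 0.428 of chromosomes 1 to 22 and X. The counts in the bin of RB1 itself, 45 to 50 Mb, were 12 in VCaP and 30 in LNCaP.

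The middle of the long arm was sparse in both lists. From 55 to 95 Mb, 20 VCaP and 49 LNCaP peaks were listed, 0.50 and 1.23 per Mb, and the ratio of counts stayed near that of the proximal part at 0.408. The single bin with equal numbers, 60 to 65 Mb, had 5 in each. Overlap in this part was 50% of VCaP peaks (27.2 to 72.8) and 20.4% of LNCaP peaks (10.2 to 34.3), and the shares of the whole lists, 71.2% and 30.2%, lie within these intervals. In the next 10 Mb the counts were 19 in VCaP and 43 in LNCaP, a ratio of 0.442.

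**Figure D2:**
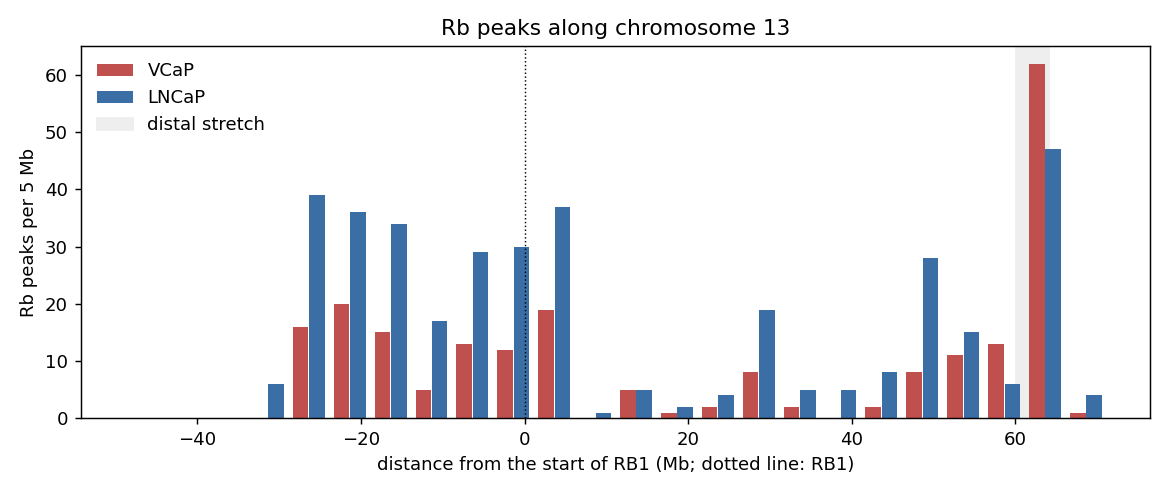
Number of Rb peaks in bins of 5 Mb (y axis) by distance from the start of RB1 in Mb (x axis), VCaP in red and LNCaP in blue; the grey band is the stretch from 109 to 113 Mb. LNCaP bars are the taller except in 1 bin of equal counts and near that stretch, where the bin from 110 to 115 Mb holds 62 VCaP and 47 LNCaP peaks.

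In the 4 Mb from 109 to 113 Mb the order of the lines was turned round. VCaP had 67 peaks there and LNCaP 20, a ratio of 3.35, against 0.406 over the rest of the chromosome. This was 31.2% of all VCaP peaks on chromosome 13 (25.04 to 37.8) and 5.31% of LNCaP peaks (3.27 to 8.07). In steps of 1 Mb from 109 Mb, VCaP had 7, 19, 28 and 13 peaks and LNCaP 0, 5, 14 and 1. VCaP summits in the stretch followed each other at a median of 32.5 kb, against 229 kb in the rest.

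The edges of the stretch were sharper on the distal side. On the proximal side, the last VCaP peak before 109 Mb had a fold of 4.70 and 12.3 tags per 10 kb in a library scaled to 1000000 tags, and the first inside had 4.99 and 11.3, so the values on both sides of that edge were close. LNCaP had no peak in the first 1.44 Mb inside it. The last VCaP peak inside, at chr13:112726829-112727350, had a fold of 5.12 and 21.9 such tags. The next VCaP peak stood 1.24 Mb beyond 113 Mb, with a fold of 8.23 and a local level no higher than the genome mean. LNCaP peaks went on from 0.099 Mb beyond that edge.

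Beyond 113 Mb the lists differed the other way. VCaP had 3 peaks and LNCaP 31, a ratio of 0.0968; this part was looked at after the data had been seen. All 3 VCaP peaks had a LNCaP partner, and 3 of the 31 LNCaP peaks (9.68%, 2.04 to 25.8) had a VCaP partner. Over the whole lists the shares were 71.2% in VCaP, within the interval for 3 of 3 (29.2 to 100%), and 30.2% in LNCaP, above the interval. With 3 VCaP peaks in this part, few of the 31 LNCaP peaks could have a partner. The low LNCaP share thus restates the counts. The strongest shared site was chr13:114238767-114239031 in VCaP and chr13:114238637-114239264 in LNCaP. It had 13 tags and a fold of 8.23 in VCaP and 79 tags and a fold of 16.2 in LNCaP. The pair at chr13:114301970-114302282 had folds of 7.05 in VCaP and 12.7 in LNCaP, and the one at chr13:115079578-115079974 had 5.88 and 10.9. Scaled local tags at these sites were between 24.0 and 44.7 in LNCaP. In VCaP they were 3.58, the genome mean, which is an upper limit there. The windows count the peak's own tags, so local tags and signal are not independent. The highest LNCaP peak without a partner in this part, chr13:113242231-113242682, had 42 tags and a fold of 13.1, and the nearest VCaP summit was 515 kb away.

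**Figure D3:**
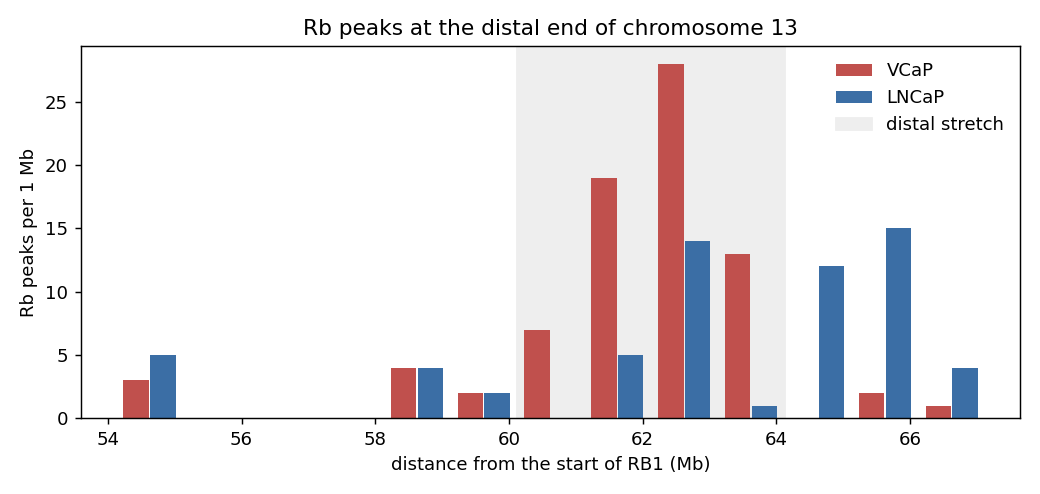
Number of Rb peaks per 1 Mb (y axis) at the distal end of chromosome 13 by distance from the start of RB1 in Mb (x axis), VCaP in red and LNCaP in blue, with the stretch from 109 to 113 Mb in grey. VCaP bars reach 28 inside the grey band and fall to 0 in the first Mb after it, where LNCaP has 12.

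Set against the rest of the genome, the stretch had the highest ratio of VCaP to LNCaP peaks among windows of its size. Of 565 windows of 4 Mb with at least 20 peaks, it ranked 1 at 3.35, the median was 0.414, and 9 were above 1. By number of VCaP peaks alone it ranked 6 of 753 windows. The window that follows it ranked 12 from the lowest ratio. The windows were laid out so that the stretch was itself a window, which favours its rank. These ranks describe the lists, and since the stretch was known from its counts they are no test.

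VCaP peaks between 109 and 113 Mb stood on a high local background and were low in fold enrichment. The local background, recovered from the authors' values as tags in the 10 kb around a peak, had a median of 208 tags in the stretch (quartiles 161.5 and 252.5) and 59.0 (45 and 80) in the rest of the chromosome. Scaled to 1000000 tags of the library this is 23.9 and 6.79, a ratio of 3.53, and 97.6% of the VCaP peaks on other chromosomes lay below the median of the stretch. In LNCaP the medians were 13.8 in the stretch and 11.7 in the rest, a ratio of 1.17, and 49.5% of peaks on other chromosomes lay below. The lowest VCaP value in the stretch, 11.3, was above the upper quartile of the rest, 9.20.

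Listed VCaP summits in the stretch were also higher in tags. VCaP pileups there had a median of 22 tags (range 14 to 64), against 12 (7 to 47) in the rest. Median fold enrichment was 4.07 in the stretch (quartiles 3.67 and 4.86) and 5.41 (4.87 and 6.26) in the rest. Peaks were called against the local background, so a summit on a higher background needs more tags to be listed. It can also be listed at a lower fold. The pileups and folds of listed peaks are thus not independent of that background. For LNCaP the medians of pileup were 13.5 and 13 tags, and those of fold 5.396 and 6.21. In the stretch, high local tags and many VCaP peaks occurred together. Elsewhere on the chromosome the picture was mixed. Between 20 and 35 Mb, VCaP had 3.40 peaks per Mb at a median of 6.67 scaled local tags. From 35 to 40 Mb its 5 peaks had a median of 11.4. From 55 to 95 Mb it had 0.50 peaks per Mb at 5.29. A relation between local tags and counts was not tested. Without input chromatin, the amount of DNA and the amount of Rb in the stretch cannot be told apart, and in a window the peak's own tags are counted as well.

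A limit on fold enrichment lowered the ratio of VCaP to LNCaP counts in the stretch more than a limit on significance did. With a fold of at least 5, 14 of the 67 VCaP peaks (20.9%) and 12 of the 20 LNCaP peaks (60.0%) were kept, a ratio of 1.17, against 0.349 in the rest of the chromosome and 0.395 over chromosomes 1 to 22 and X. The limit on −log10 q, set at 5, kept 35 VCaP and 11 LNCaP peaks, a ratio of 3.18, against 0.289 and 0.357. In the rest of the chromosome the fold limit kept 67.4% of VCaP and 78.4% of LNCaP peaks, and over chromosomes 1 to 22 and X it kept 69.1% and 74.9%.

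**Figure D4:**
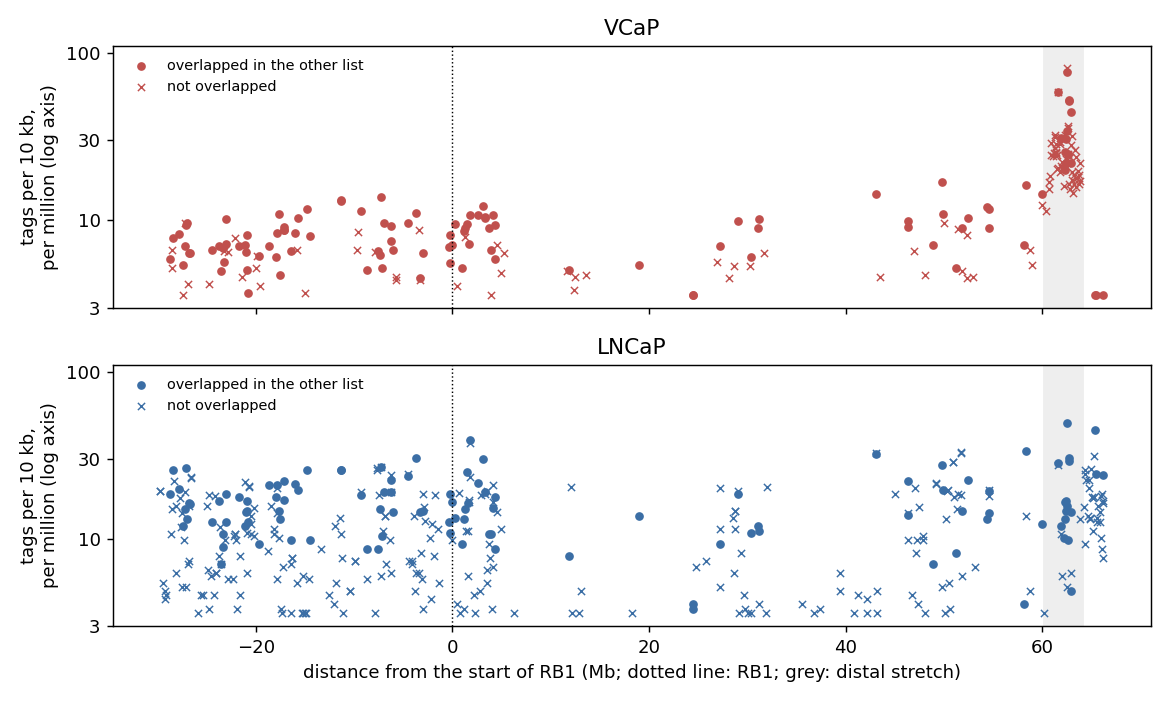
Tags in the 10 kb around each Rb peak, scaled to 1000000 tags of the library (y axis, log axis) by distance from the start of RB1 in Mb, VCaP above and LNCaP below; dots have an overlapping peak in the other list, crosses have none, and the grey band is 109 to 113 Mb. VCaP peaks in the band have a median of 23.9 against 6.79 in the rest of the chromosome, LNCaP peaks 13.8 against 11.7.

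The 109 to 113 Mb stretch also raised the share of the VCaP list that lay on chromosome 13. The chromosome held 2.29% of VCaP peaks (1.996 to 2.61) and 1.72% of LNCaP peaks (1.55 to 1.90), and its ratio of counts, 0.570, ranked 2 among 23 chromosomes, whose ratios run from 0.222 to 0.671. With the stretch left out, an alternative chosen after seeing the data, the shares were 1.59% (1.34 to 1.86) in VCaP and 1.63% (1.46 to 1.80) in LNCaP. The ratio was then 0.415, rank 14. The other chromosomes were left whole, and leaving out a stretch of high ratio can only lower this rank. With a fold of at least 5, all of the chromosome included, both lists had 1.79% of their peaks on it.

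Fewer VCaP peaks on chromosome 13 had a LNCaP partner than in the list as a whole, and without the stretch the share was nearer to that of the list. Of the 215 VCaP peaks, 113 were overlapped, or 52.6% (45.7 to 59.4), against 71.2% over chromosomes 1 to 22 and X. Between 109 and 113 Mb the share was 14 of 67, or 20.9% (11.9 to 32.6), and without that stretch it was 99 of 148, or 66.9% (58.7 to 74.4). Of the 377 LNCaP peaks, 111 were overlapped, or 29.4% (24.9 to 34.3), against 30.2% in the whole list. In the stretch 14 of 20 LNCaP peaks, or 70.0% (45.7 to 88.1), had a VCaP partner, and in the rest 91 of 347, or 26.2% (21.7 to 31.2). The stretch was picked for its many VCaP and few LNCaP peaks, which by itself lowers the VCaP share there and raises the LNCaP share. The shares in the stretch are therefore a description only. All intervals are exact binomial intervals and cover counting error only, as peaks are not replicates.

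In the stretch, the 14 VCaP peaks with a partner had the higher medians of pileup and length, as in the rest of the chromosome. In the rest the VCaP medians were 14 tags and 326 bp with a partner, and 10 tags and 259 bp without. Peaks of the stretch with a partner had a median pileup of 40 tags (range 20 to 64) and a median length of 521.5 bp. The 53 without a partner had 20 tags (14 to 53) and 332 bp, so the ranges of pileup overlapped. Median fold was 5.08 and 3.97. The most enriched of the stretch in VCaP, chr13:111108213-111108630, had 42 tags and a fold of 8.48 in VCaP and 8 tags and a fold of 4.76 in LNCaP. Its ratio of 1.78 was the highest of the chromosome's pairs. The reverse was seen at chr13:111526962-111527389, with 36 tags and a fold of 6.34 in VCaP and 25 tags and a fold of 13.9 in LNCaP, where it ranked 4 on the chromosome.

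Further shared sites of the stretch were among its most enriched. At chr13:110790250-110791090 the fold was 6.34 in VCaP and 11.2 in LNCaP. At chr13:111358160-111358954 it was 6.94 in VCaP, with 52 tags, and 7.51 in LNCaP, with 17. The LNCaP peak chr13:111805560-111806336 had a fold of 10.98 on 24 tags and a VCaP partner of 6.21 on 59 tags. In each of these the VCaP summit held more tags, unscaled, and the lower fold; the VCaP library was 2.37 times as deep. The highest sites of the stretch without a partner were chr13:111997056-111997498 in VCaP (24 tags, fold 6.52) and chr13:110768417-110768779 in LNCaP (15 tags, fold 8.25).

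At most overlapping pairs, Rb enrichment was lower in VCaP than in LNCaP. Over the 113 pairs of the chromosome the fold was the higher in VCaP in 13, or 11.5% (6.27 to 18.9), against 19.2% of all 6688 pairs on chromosomes 1 to 22 and X. The median ratio of VCaP to LNCaP fold was 0.675 (quartiles 0.582 and 0.842) on chromosome 13 and 0.758 on the other chromosomes. Without the stretch it was 0.667 over 99 pairs, so that the stretch did not set this value. In the 14 pairs of the stretch the median was 0.801, and in the 6 pairs around RB1 it was 0.625, with none above 1. Both folds are set against local background, each within its library.

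Tags at the same pairs gave a different picture of the stretch. Pileup per 1000000 tags had a median of 4.60 in VCaP and 4.49 in LNCaP for the pairs between 109 and 113 Mb, and of 1.61 and 5.18 for those in the rest of the chromosome. The median ratio of VCaP to LNCaP was 1.02 in the stretch, 0.299 in the rest and 0.298 on other chromosomes. The log2 ratio of local tags was 1.00 in the stretch (quartiles 0.78 and 1.28), -0.97 in the rest (-1.32 and -0.65) and -1.24 on other chromosomes. All 14 pairs of the stretch had more scaled local tags in VCaP, the lowest log2 ratio being 0.26. At the 3 pairs beyond 113 Mb it was between -3.64 and -2.74; there the VCaP level is that of the genome mean, an upper limit for those windows.

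**Figure D5:**
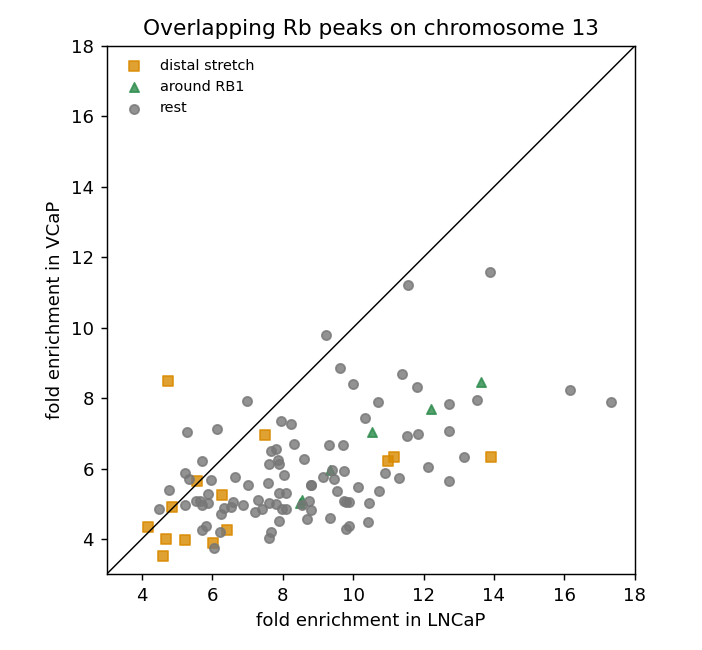
Fold enrichment in VCaP (y axis) against that in LNCaP (x axis) for the 113 overlapping pairs on chromosome 13, by part of the chromosome, with the line of equal values. Most points lie below the line (100 of 113), including all 6 around RB1; of the 14 orange squares, 109 to 113 Mb, 4 are above it.

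Most of the 10 highest sites of each list on the chromosome were shared, but their order differed between the lines. In VCaP the 10 highest folds ran from 8.41 to 11.6, and 8 of these peaks had a LNCaP partner. In LNCaP the 10 highest ran from 12.7 to 17.3, with 8 partners in VCaP. The sites in both were the one before RB1 described above and chr13:95253731-95254241, the highest in VCaP, with 33 tags and a fold of 11.6 in VCaP and 40 tags and a fold of 13.9 in LNCaP.

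Next in VCaP came chr13:98628215-98628707, with a fold of 11.2 in VCaP and 11.6 in LNCaP, and chr13:103425902-103426358, with 9.80 and 9.22. Sites at chr13:25086701-25086981, chr13:24463386-24463679 and chr13:51483749-51484306 had folds of 8.85, 8.68 and 8.41 in VCaP, and their LNCaP partners had 9.62, 11.4 and 9.99. Of these shared sites, the one at chr13:103425902-103426358 had the higher fold in VCaP and the others in LNCaP. The remaining shared site of the 10, chr13:111108213-111108630, named above, also had the higher fold in VCaP (8.48 in VCaP and 4.76 in LNCaP). Among the 10, the sites without a LNCaP partner were chr13:80535456-80535837 (18 tags, fold 8.49) and chr13:101797287-101797556 (15 tags, fold 8.42).

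LNCaP led with chr13:34116600-34117284, where the VCaP partner had 25 tags and a fold of 7.89 and LNCaP had 56 tags and a fold of 17.3. The LNCaP peak at chr13:33160261-33160772 had a VCaP partner of 7.93 and a LNCaP fold of 13.5. At chr13:67804406-67804964 the folds were 6.32 in VCaP and 13.2 in LNCaP, and at chr13:42845800-42846202 they were 5.64 and 12.7. These were named as the highest of the LNCaP list, a choice that favours a lower value in VCaP.

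Some LNCaP sites of high enrichment had no VCaP peak nearby. The highest, chr13:46785774-46786261, at -2092 kb from the start of RB1, had 34 tags and a fold of 16.8, rank 72 of 21955 LNCaP peaks, and the nearest VCaP summit was 901 kb away. Its window held 12.3 scaled tags per 10 kb, close to the LNCaP median of the rest of the chromosome. Unscaled this was 45 tags, among which the peak's own are counted, so it does not give the background apart from the peak. After it and the site beyond 113 Mb came chr13:51796130-51796971 and chr13:27745680-27746470, with folds of 10.3 and 10.2. The highest VCaP peaks without a partner were lower: after those named above came chr13:29292963-29293316 (8.39), chr13:27446989-27447240 (7.37) and chr13:25688319-25688580 (7.01), each with 13 to 15 tags.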

How the data were processed

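Rb ChIP-seq peaks of 1 VCaP and 1 LNCaP library, assigned by the cell line label, were analysed on chromosome 13. The authors ran MACS 2.1.0.20140616 on each library with no control, per the file headers, at a q-value limit of 0.05, with 75 bp tags and 1 tag kept per position. The libraries had 8691938 tags in VCaP and 3671482 in LNCaP after filtering, and fragments of 225 and 241 bp. The submitters' processing notes name hg19, MACS2 and HOMER; the aligner is not given in the sources used here.

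Per the file headers, the deposited pileup is a coverage signal not scaled to depth, the deposited fold enrichment is a ratio to the local background of the same library, and the deposited significance is −log10 p and −log10 q. The summit files repeat the summits of all 9423 and 21994 peaks.

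Computed here (Python 3.11.15, pandas 2.3.3, scipy 1.17.1): the local background came from the fold as (pileup + 1)/(background + 1) and was whole, within 0.05 tags per 10000 bp, for 100% of peaks above the genome mean (31.2 tags in VCaP and 13.2 in LNCaP). On chromosome 13, 7 VCaP and 26 LNCaP peaks were at that mean, which is an upper limit there. Scaled tags are per 1000000 tags of the library. Overlap meant at least 1 bp, and of several partners the one of highest fold was taken. Shares have exact Clopper-Pearson intervals at 95%. The window around RB1 was 1 Mb on each side of the middle of the gene. Overlap code was tested on simulated data. With 1 library per line there was no test between lines.

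Members and lists were chosen with earlier results of these data known. Named were the 10 highest peaks of each list, the 5 highest without overlap, all peaks around RB1, and the 5 highest of each list from 109 to 113 Mb. No gene annotation of hg19 was used here, so peaks were assigned to no gene but RB1, and shares at transcription start sites and the gene lists drawn up for them were not looked up. The gene order and promoter sequences are from RefSeq (GRCh38.p14). Alternatives were limits on q and fold, lists of equal length, other overlap rules and other edges.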

Additional observations from a re-analysis of the deposited data

How the results depend on the processing

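Of 46 values recomputed under other settings, 31 stayed within the exact interval of the value reported and 15 did not. With a fold of at least 5, the share of the VCaP list on chromosome 13 was 1.79%, the overlapped share of its peaks 67.2% and the share in the 109 to 113 Mb stretch 12.1%. Without that stretch, chosen after seeing the data, the first 2 were 1.59% and 66.9%. With −log10 q of at least 5, 24.7% of LNCaP peaks were overlapped. With the LNCaP list reduced to its highest folds, as many as VCaP has peaks, the overlapped shares were 39.1% in VCaP and 45.1% in LNCaP, and the LNCaP share of the list on chromosome 13 was 1.94% and that around RB1 4.95%. When each peak had to cover 50% of the other, the overlapped shares were 30.7% in VCaP and 17.5% in LNCaP, and with summits within 200 bp they were 41.4% and 23.6%. The ratio of VCaP to LNCaP at pairs was 0.325 with pileup per 1000000 tags in place of fold. The overlapped shares moved up under some settings and down under others, and the causes of these shifts were not tested. Moving the edges of the stretch by 0.5 Mb left its share at 27.9 to 32.1% in VCaP and 5.04 to 7.16% in LNCaP. No paired analysis was possible because each line has 1 library and no test was made. Shares at transcription start sites were not run. The smallest peaks on chromosome 13 rest on 7 tags at the summit in VCaP and 4 in LNCaP.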

Other observations

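Up to 20 Mb, next to the centromere, LNCaP had 6 peaks and VCaP none, the first VCaP summit being at 20176034. The strongest of the 6 was chr13:19173907-19174307, with 26 tags and a fold of 9.96, and the nearest to it, of fold 5.53, was chr13:19172689-19172952. The others had folds between 3.55 and 9.45 on 4 to 13 tags.

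Leaving aside the start of the chromosome, where neither list had a peak before its first summit (20176034 in VCaP and 19172781 in LNCaP), the longest gap between neighbouring peaks of either list ran from 67804965 to 73301611, or 5.50 Mb, and it began at the shared site of fold 6.32 in VCaP and 13.2 in LNCaP. For VCaP alone the longest such gap was 11.5 Mb, from 80535838 to 91999636, and it followed the peak of highest fold in VCaP without a LNCaP partner. For LNCaP alone it was 5.57 Mb, from 55167457 to 60737641.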
